A study of Homo sapiens with 4 samples.

Results

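The genes described here are 39 of the 24424 symbols counted in every library. They were picked by name as the enzymes of glycolysis, the regulators of pyruvate use, the hypoxia-inducible factors (HIF) with the proteins that degrade them, and well-known HIF target genes. BEAS-2B, an immortalised line from human bronchial epithelium with a wild type genotype in the labels, was measured by RNA sequencing in 4 conditions, 1 library each. Control received no treatment and LPS received lipopolysaccharide for 2 hr. Cells of WT PDZ+LPS had a wild-type PDZ peptide for 24 hr before the same 2 hr of LPS, and cells of mut PDZ+LPS had a mutant PDZ peptide instead. The peptides were built from a PDZ domain of the tight junction protein ZO-1 with a TAT sequence for entry into cells, and the mutant form has alanines in place of a pair of glycines. No library had a peptide without LPS, so the effect of a peptide by itself was not measured.

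Glycolysis splits glucose into pyruvate in the cytosol. Lactate dehydrogenase turns pyruvate into lactate, while the pyruvate dehydrogenase kinases hold it back from the mitochondria. HIF-1 is a transcription factor made of an oxygen-sensitive alpha subunit and the stable partner ARNT. When oxygen is present, prolyl hydroxylases of the EGLN family mark the alpha subunit and VHL directs its destruction, so HIF protein is set largely by decay, while HIF1A transcription is also known to respond to NF-kB in inflamed cells. RNA counts measure neither HIF protein nor the flow through the pathway.

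Libraries held 19682929 to 25155647 counts. A slash names a comparison, with the first library over the second, and sets of 4 values follow the order Control, LPS, WT PDZ+LPS, mut PDZ+LPS. With 1 library per condition there was no replicate, hence no test and no p-value. Brackets after a log2 fold change hold the exact 95% counting interval for that pair of libraries, which covers counting error only, since reads that carry no molecular identifier are not separate molecules. IL6, an acute inflammatory cytokine, had 352, 10089, 9299 and 14629 normalized counts, far higher in 3 of 3 libraries labelled LPS than in Control. The epithelial keratin KRT7 stood at 38725 to 51663 normalized counts, EPCAM was low (34.8 to 49.5), and the leukocyte marker PTPRC had 0 counts throughout, which allows up to 3 per library, while CD14 had 366 to 523 normalized counts. Of other epithelial markers, KRT8 had 14488 to 21612, KRT19 87.9 to 188 and CDH1 362 to 620. The mesenchymal markers VIM (20794 to 24974.5) and FN1 (26147 to 43915.5) were also abundant, while CDH2 had 68.1 to 99.2. In bulk RNA, fewer cells expressing a gene and less of its RNA per cell cannot be told apart. Across genes, values in mut PDZ+LPS moved with transcript length and GC content, and corrected values of that library are those after both trends were subtracted.

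ADM, PDK4, PFKFB4 and CA9 showed the largest differences between any pair of libraries among the expressed members with a promoter entry, and their promoters are shown for that reason. Each run covers 250 bases before to 50 bases after the start site, 5′ to 3′ on the strand of the gene, from RefSeq on GRCh38.p14. Capitals mark ACGTG and GCGTG, forms of the core of the hypoxia response element, and the kappa-B consensus, each searched on both strands. ACGTG is also part of the E-box CACGTG. The windows are chr11:10304823-10305122 (plus strand, ADM), chr7:95596467-95596766 (minus strand, PDK4), chr3:48556754-48557053 (minus strand, PFKFB4) and chr9:35673678-35673977 (plus strand, CA9).
ADM: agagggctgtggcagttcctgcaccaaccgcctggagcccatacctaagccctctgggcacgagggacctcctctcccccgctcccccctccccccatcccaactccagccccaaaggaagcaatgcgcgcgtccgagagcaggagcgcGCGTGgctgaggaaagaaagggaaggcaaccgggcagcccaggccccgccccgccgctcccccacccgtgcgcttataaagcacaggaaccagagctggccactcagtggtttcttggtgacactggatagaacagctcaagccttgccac
PDK4: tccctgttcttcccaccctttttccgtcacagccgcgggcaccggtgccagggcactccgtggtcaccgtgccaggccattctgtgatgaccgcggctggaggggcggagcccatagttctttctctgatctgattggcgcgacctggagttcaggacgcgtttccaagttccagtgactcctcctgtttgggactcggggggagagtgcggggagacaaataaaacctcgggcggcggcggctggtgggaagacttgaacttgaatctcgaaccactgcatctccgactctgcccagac
PFKFB4: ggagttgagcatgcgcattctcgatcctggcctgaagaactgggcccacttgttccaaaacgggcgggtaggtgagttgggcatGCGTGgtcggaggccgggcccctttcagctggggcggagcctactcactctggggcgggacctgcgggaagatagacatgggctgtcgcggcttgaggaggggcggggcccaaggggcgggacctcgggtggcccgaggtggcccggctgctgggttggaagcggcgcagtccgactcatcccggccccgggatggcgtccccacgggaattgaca
CA9: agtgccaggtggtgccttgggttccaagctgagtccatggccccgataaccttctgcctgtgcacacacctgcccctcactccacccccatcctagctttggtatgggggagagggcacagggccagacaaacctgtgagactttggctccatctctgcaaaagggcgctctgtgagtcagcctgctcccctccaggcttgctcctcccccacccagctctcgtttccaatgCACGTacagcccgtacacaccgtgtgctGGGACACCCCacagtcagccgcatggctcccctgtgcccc

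The ADM window held GCGTG at -101 from the start site, and the PFKFB4 window held GCGTG at -166. In the CA9 window ACGTG lay on the opposite strand at -18, written CACGT, with a kappa-B match at 11. The PDK4 window held none of these letters. Windows were found for 34 of the 39 members, and BNIP3L, NDRG1, PFKFB2, VEGFA and VHL had no entry. ACGTG stood in a window of 20 of the 34 members (58.8%), against 24.9% of all 27305 genes with a window and 32.3% of the 9758 of these that were expressed. GCGTG gave 52.9%, 40.6% and 58.6% for members, all genes and expressed genes, and either core gave 85.3%, 52.4% and 70.3%. Counted by window, since some genes have several, either core stood in 63.8% of 58 member windows and 60.6% of the windows of expressed genes. The kappa-B consensus was found in 4 members (ARNT, CA9, PFKFB3 and PFKM, 11.8%), against 8.96% of expressed genes. Such short matches describe the window and are not bound sites.

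Most of these genes were abundant, and most of the steady ones were enzymes that carry glucose to lactate. A mean of 16 or more normalized counts was reached by 37 members, which are called expressed here, and a mean of 1000 or more by 27 members. Ranked by mean normalized count among all genes, GAPDH was number 9, ENO1 10, PKM 33, ALDOA 62, LDHA 84 and HIF1A 115. Together the 39 genes took 1.55%, 1.47%, 1.47% and 1.5% of the counts. The highest library exceeded the lowest by under 25% in 21 of the 37 expressed members (56.8%), a limit met by 30.8% of all expressed genes and by 41.4% of genes with a mean of 1000 or more. Of the 21 members, 15 were among the 17 enzymes from glucose to lactate. The members below the expression limit were EGLN3, an oxygen-sensing hydroxylase with 6, 8, 3 and 4 counts, and ANKRD37, a HIF target with 7, 12, 18 and 11 counts.

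Few members differed 2-fold from Control. Called genes are those that differed 2-fold or more and had 16 or more normalized counts in one library of the pair. Shares of all genes called as counted are taken over the genes that met this count limit. In LPS/Control, 1 of 37 members that met the count limit was called higher (ADM), against 3.46% of all genes, and 1 was called lower (PDK4), against 1.41%. The WT PDZ+LPS library had 2 of 38 members above Control (ADM and ANKRD37), against 3.28%, and 0 below it, against 1.42%. For mut PDZ+LPS/Control the called members were 1 of 37 higher (ADM), against 5.13%, and 2 lower (PDK4 and PFKFB4), against 2.96%. Counts of 1 or 2 genes are near these backgrounds and are no result about the list as a whole.

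With the fold limit lowered to 1.5, LPS/Control gave 4 members higher (ADM, CA9, HIF1A and HK2), against 6.71% of all genes, and 2 lower (PDK4 and PFKFB4), against 4.77%. The same limit gave 4 members higher for WT PDZ+LPS/Control (ADM, ANKRD37, HIF1A and HK2), against 6.59%, and 0 lower, against 4.61%. It gave 2 higher for mut PDZ+LPS/Control (ADM and VHL), against 11.6%, and 4 lower (PDK3, PDK4, PFKFB2 and PFKFB4), against 12%. Median log2 fold changes of the expressed members were 0.031 for LPS/Control, 0.054 for WT PDZ+LPS/Control and -0.036 for mut PDZ+LPS/Control, and the medians of all expressed genes were -0.0010, 0.010 and -0.018. Within 0.1 of 0 on the log2 scale lay 21 of the 37 expressed members in LPS/Control.

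**Figure D1:**
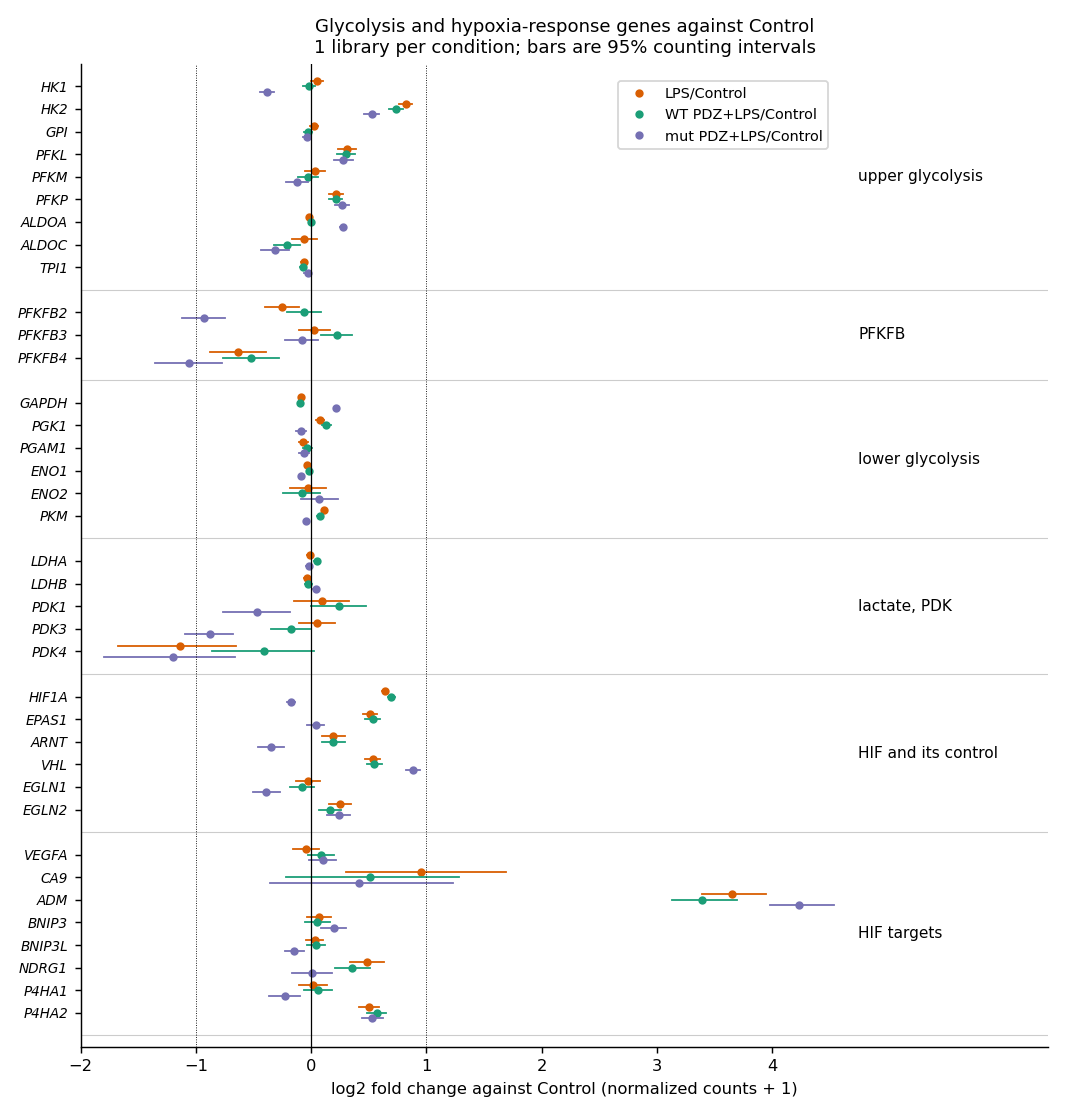
Log2 fold change against Control (horizontal axis, from normalized counts plus 1) of the 37 expressed members by role, for LPS (orange), WT PDZ+LPS (green) and mut PDZ+LPS (purple), with 95% counting intervals as bars and dotted lines at 2-fold. ADM lies beyond 3 for each library, most enzymes lie close to 0, and the purple points stand apart in PFKFB2, PDK3, HIF1A and EPAS1.

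The enzymes that carry glucose to lactate were nearly level, with HK2 as the main exception. Among 17 such enzymes, 15 had a highest library less than 25% above the lowest, and HK1 and HK2 did not. Their median log2 fold changes against Control were -0.0081 for LPS, -0.020 for WT PDZ+LPS and -0.031 for mut PDZ+LPS. For mut PDZ+LPS/LPS their median was -0.032 as counted and -0.11 corrected, with 10 and 13 of 17 lower. Over all genes with a corrected value the corrected median was -0.0039, with 6151 of 12114 lower. They took 1.376%, 1.257%, 1.255% and 1.332% of the counts.

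HK2, the inducible hexokinase that traps glucose in the cell, had 3273 normalized counts without treatment, 5780.5 with LPS, 5443 with WT PDZ+LPS and 4716 with mut PDZ+LPS. All 3 treated libraries were above Control, by log2 fold changes of 0.82 (0.76 to 0.88), 0.73 (0.67 to 0.79) and 0.53 (0.46 to 0.59). Corrected for length, mut PDZ+LPS/Control was 0.82. HK1, the constitutive hexokinase, had 4933, 5114, 4871 and 3778 normalized counts, so only mut PDZ+LPS stood apart, at -0.44 (-0.50 to -0.37) over LPS and -0.28 when corrected.

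Phosphofructokinase commits the sugar to glycolysis, and 2 of its 3 genes were slightly higher in the treated libraries. PFKL, the liver type, had 2106, 2612, 2598 and 2556 normalized counts, and LPS/Control was 0.31 (0.23 to 0.39) on the log2 scale. PFKP, the platelet type, had 3951, 4588, 4575 and 4762, and LPS/Control was 0.22 (0.16 to 0.27). PFKM, the muscle type, stayed between 1749.6 and 1948 normalized counts and shares exonic bases with SENP1 on the other strand (889 to 1401 normalized counts).

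The remaining enzymes of the upper part moved less. GPI, which interconverts hexose phosphates, had 11446 to 11934 normalized counts, and TPI1, which interconverts triose phosphates, had 16999 to 17854. ALDOA, the main aldolase, had 25341 to 25669 normalized counts in the first 3 libraries and 31034 in mut PDZ+LPS. That gap was 0.29 (0.27 to 0.32) on the log2 scale over LPS and -0.11 when corrected. ALDOC, a minor aldolase, had 1248, 1197, 1078 and 1006 normalized counts.

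The lower part of the pathway, which yields ATP and pyruvate, held the most abundant members. GAPDH had 66134 normalized counts without treatment, 62393 with LPS, 61764 with WT PDZ+LPS and 76633 with mut PDZ+LPS. Over LPS the last of these was, on the log2 scale, 0.30 (0.28 to 0.31), and -0.0055 when corrected. ENO1, the main enolase, had 61043 to 64703 normalized counts and PGAM1, the phosphoglycerate mutase, had 9260.0 to 9712. PKM, the pyruvate kinase, had 35020.5, 37900, 36857 and 34030.2, with 0.11 (0.094 to 0.13) for LPS/Control, and PGK1, the first ATP-yielding kinase, had 10090.4, 10640, 11052 and 9501. ENO2, the neuronal enolase, stayed between 604 and 672.

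The subunits of lactate dehydrogenase were level, with 22552 to 23642 normalized counts for LDHA and 15123 to 15895 for LDHB. Several of these enzymes have processed pseudogenes of near-identical sequence, and PGAM4, a copy of PGAM1, was listed at 163 to 186 normalized counts. How reads shared by such copies were assigned is not given in the sources used here.

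**Figure D2:**
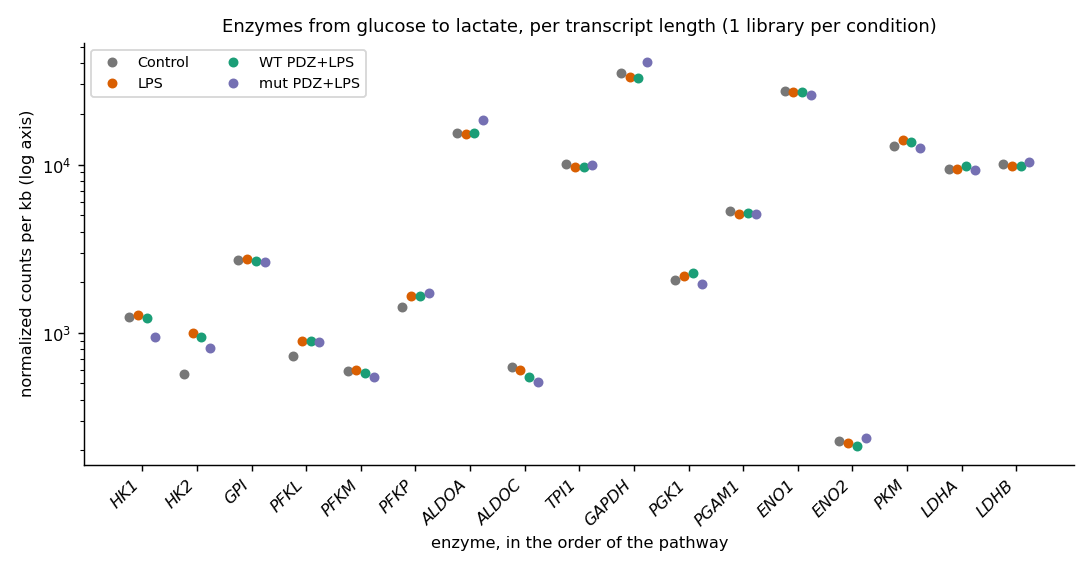
Normalized counts per kb of transcript (vertical log axis) of the 17 enzymes in pathway order, with 1 point per library for Control (grey), LPS (orange), WT PDZ+LPS (green) and mut PDZ+LPS (purple). The points of most enzymes nearly coincide, HK2 is lowest in Control, and GAPDH and ALDOA are highest in mut PDZ+LPS.

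PFKFB enzymes make and break the sugar bisphosphate that is the main activator of phosphofructokinase. PFKFB4 had 336 normalized counts without treatment, 216 with LPS, 234 with WT PDZ+LPS and 161 with mut PDZ+LPS, and Control was the highest library. Over Control the log2 fold changes were -0.63 (-0.88 to -0.40), -0.52 (-0.76 to -0.28) and -1.06 (-1.35 to -0.78), the last of them -1.03 corrected. UCN2, which shares exonic bases with PFKFB4, had 6.09 to 24.7 normalized counts and was highest in mut PDZ+LPS.

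PFKFB2 had 746, 626, 715 and 391 normalized counts, lowest in mut PDZ+LPS. Over LPS it was -0.68 (-0.87 to -0.49) there on the log2 scale and -0.24 when corrected. YOD1, with 623 to 776 normalized counts, shares exonic bases with PFKFB2 on the other strand and was likewise lowest in mut PDZ+LPS. PFKFB3, the isoform best known from inflamed and hypoxic cells, had 809, 826, 943 and 764, and its LPS/Control interval held 0 (-0.11 to 0.16).

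Pyruvate dehydrogenase kinases switch off the enzyme that passes pyruvate to the citric acid cycle. PDK4 had 98.3 normalized counts without treatment, 44.2 with LPS, 73.7 with WT PDZ+LPS and 42.3 with mut PDZ+LPS. Control was highest, and log2 fold changes over it were -1.14 (-1.68 to -0.65), -0.41 (-0.86 to 0.021) and -1.20 (-1.80 to -0.66), the last -1.05 corrected. At 36 to 113 counts these intervals are wide, and WT PDZ+LPS/LPS was 0.72 (0.19 to 1.30).

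PDK3 had 576, 596, 509.9 and 313 normalized counts, with mut PDZ+LPS lowest at -0.93 (-1.14 to -0.72) on the log2 scale over LPS, or -1.04 corrected. PDK1, a HIF-1 target, had 256, 273, 302 and 184. For mut PDZ+LPS/LPS its log2 fold change was -0.56 (-0.85 to -0.28) as counted and 0.072 corrected, with a transcript of 14193 nt, the longest among the members.

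Within the HIF system, HIF1A, EPAS1 and VHL were higher in LPS and WT PDZ+LPS than in Control. HIF1A, the alpha subunit of HIF-1, had 14893 normalized counts without treatment, 23197 with LPS, 24149 with WT PDZ+LPS and 13183 with mut PDZ+LPS. LPS was 1.56-fold and WT PDZ+LPS 1.62-fold above Control, or 0.64 (0.61 to 0.67) and 0.70 (0.67 to 0.73) on the log2 scale. The mut PDZ+LPS library was below Control at -0.18 (-0.21 to -0.14), or -0.031 corrected, and below LPS at -0.82 (-0.85 to -0.78), or -0.67 corrected.

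EPAS1, which encodes HIF-2 alpha, had 3191, 4553, 4622 and 3279 normalized counts. LPS/Control was 0.51 (0.45 to 0.58) on the log2 scale and mut PDZ+LPS/Control was 0.040 (-0.032 to 0.11), or 0.28 corrected. VHL, which recognises hydroxylated HIF for destruction, had 2909, 4216, 4254 and 5369, above Control in each treated library by 0.54 (0.47 to 0.60), 0.55 (0.48 to 0.61) and 0.88 (0.82 to 0.95), the last 1.06 corrected. The partner subunit ARNT had 1432, 1637, 1638 and 1124. EGLN1, the main hydroxylase of HIF-1 alpha, had 1433, 1405, 1357 and 1095, and EGLN2 had 1517, 1802, 1697 and 1793. The 7 genes of HIF and its control took 0.117%, 0.156%, 0.159% and 0.112% of the counts.

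HIF1A-AS2, an antisense RNA, overlaps the end of HIF1A in RefSeq. It had 4674, 8936, 8448 and 8281 normalized counts and was high in every treated library, at 0.94 (0.89 to 0.98), 0.85 (0.80 to 0.90) and 0.83 (0.77 to 0.88) over Control. For mut PDZ+LPS/LPS it differed by -0.11 (-0.15 to -0.065) while HIF1A differed by -0.82 (-0.85 to -0.78). Summed over both symbols, mut PDZ+LPS/LPS was -0.58 (-0.61 to -0.56) and LPS/Control 0.72 (0.69 to 0.74). The kit keeps the strand, but whether the counting used it is not given in the sources used here, so reads of the overlap cannot be assigned to HIF1A or its antisense partner, and the part of that overlap in the HIF1A values was not tested.

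**Figure D3:**
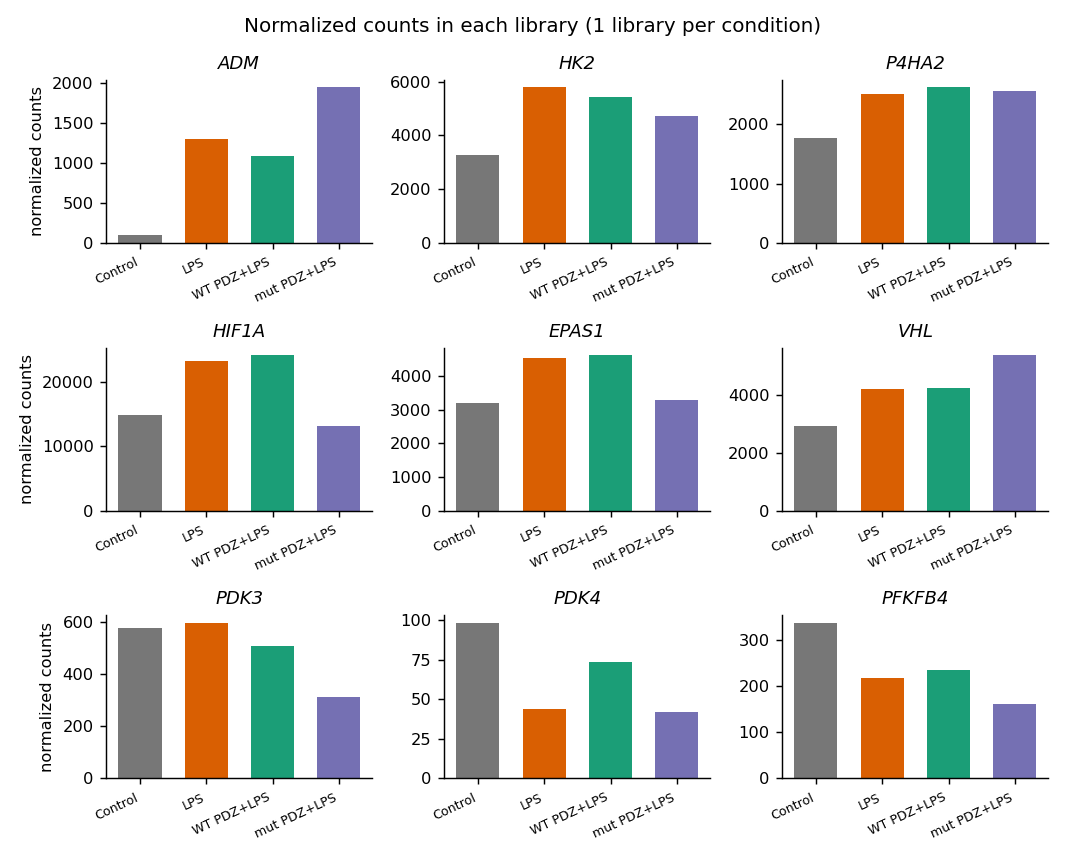
Normalized counts (vertical axis from 0) of 9 members, with 1 bar per library. ADM, HK2, P4HA2 and VHL are lowest in Control, HIF1A and EPAS1 are higher in LPS and WT PDZ+LPS than in the other libraries, PDK3 is lowest in mut PDZ+LPS, and PDK4 and PFKFB4 are highest in Control.

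ADM, the precursor of the vasodilator adrenomedullin, differed more than any other HIF target among the members. It had 102 normalized counts without treatment, 1291 with LPS, 1078 with WT PDZ+LPS and 1939.9 with mut PDZ+LPS. The treated libraries were 12.6-fold, 10.5-fold and 18.9-fold above Control, or 3.65 (3.39 to 3.95), 3.39 (3.13 to 3.69) and 4.24 (3.98 to 4.53) on the log2 scale. ADM ranked 54, 57 and 50 from the top of the 13277, 13284 and 13434 genes that met the count limit in these comparisons. Over LPS, WT PDZ+LPS stood at -0.26 (-0.38 to -0.14) and mut PDZ+LPS at 0.59 (0.48 to 0.69), or 0.30 corrected.

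P4HA2, a subunit of collagen prolyl hydroxylase, had 1766, 2503, 2620.4 and 2553 normalized counts, and the 3 treated libraries lay close together above Control, at 0.50 (0.42 to 0.59), 0.57 (0.49 to 0.65) and 0.53 (0.44 to 0.62) on the log2 scale, the last 0.65 corrected. Its antisense partner P4HA2-AS1 had 25.2 to 61.1 normalized counts. P4HA1, the sister isoform, had 1022, 1035, 1065 and 873. NDRG1, a stress-responsive gene, had 574, 805, 736 and 578, with 0.49 (0.34 to 0.64) for LPS/Control and 0.0092 (-0.16 to 0.18) for mut PDZ+LPS/Control, or 0.027 corrected.

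CA9, the carbonic anhydrase used as a hypoxia marker, was barely detected, with 29, 53, 36 and 29 counts. Its LPS/Control value was 0.95 (0.30 to 1.69) on the log2 scale, and the intervals of both peptide libraries over Control held 0. ARHGEF39, which shares exonic bases with CA9 on the other strand, had 439 to 596 normalized counts and was highest in Control, where CA9 was lowest.

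VEGFA, the angiogenic growth factor, had 1159.9 to 1284 normalized counts. The mitophagy receptors BNIP3 and BNIP3L had 1305 to 1496 and 2368 to 2695, and PNMA2, whose exons overlap BNIP3L on the other strand, had 575 to 939.7. VEGFA, BNIP3, BNIP3L and P4HA1 thus stayed within 0.1 of 0 on the log2 scale in LPS/Control while ADM was called. Over the 8 expressed HIF targets among the members, the LPS/Control median was 0.28, with 7 above 0. The medians were 0.22 for WT PDZ+LPS/Control, with 8 above 0, and 0.15 for mut PDZ+LPS/Control, with 6 above 0. Medians of all expressed genes were -0.0010, 0.010 and -0.018. ANKRD37, with 2.7-fold for WT PDZ+LPS/Control and an interval of 0.25 to 3.08 on the log2 scale, overlaps UFSP2, which had 502 to 646 normalized counts.

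Isozyme shares were taken among the members of each family, leaving out isozymes that are no members, from normalized counts per kb. A share within a library does not depend on the size factors. One isozyme led in all 4 libraries in 10 of 10 families per kb and in 9 by counts alone. Lengths are those of the longest protein-coding transcript, which need not be the one expressed. Shares in mut PDZ+LPS were not corrected for the length trend of that library. HK2 made up 31.5% of its family in Control and 43.9%, 43.6% and 46.4% in the treated libraries. P4HA2 went from 59.5% in Control to 67.3%, 67.6% and 71.3%, and PFKFB4 from 24.8% to 18.2%, 17.4% and 16.7%.

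Other families were steadier. PFKP held 52.1% to 54.8% of the phosphofructokinases, ALDOA 96.1% to 97.3% of the aldolases, ENO1 99.1% to 99.2% of the enolases and HIF1A 84.0% to 87.2% of the HIF alpha RNA. Among PDK1, PDK3 and PDK4, PDK3 held 86.4% to 90.8% per kb, and PDK1, with its very long transcript, held 27.5% to 34.2% by counts alone. With PDK2 counted in, which is no member and was added after seeing the data, PDK3 held 48.3% to 60.8% per kb and led in 4 of 4 libraries, while by counts PDK2 led in 3, all but LPS. Among the members alone, counts and counts per kb gave different leaders in the hexokinases and the lactate dehydrogenases. By counts alone HK2 exceeded HK1 in the treated libraries (52.8% to 55.5%), and LDHA held 58.7% to 60.9% by counts against 47.5% to 49.7% per kb.

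**Figure D4:**
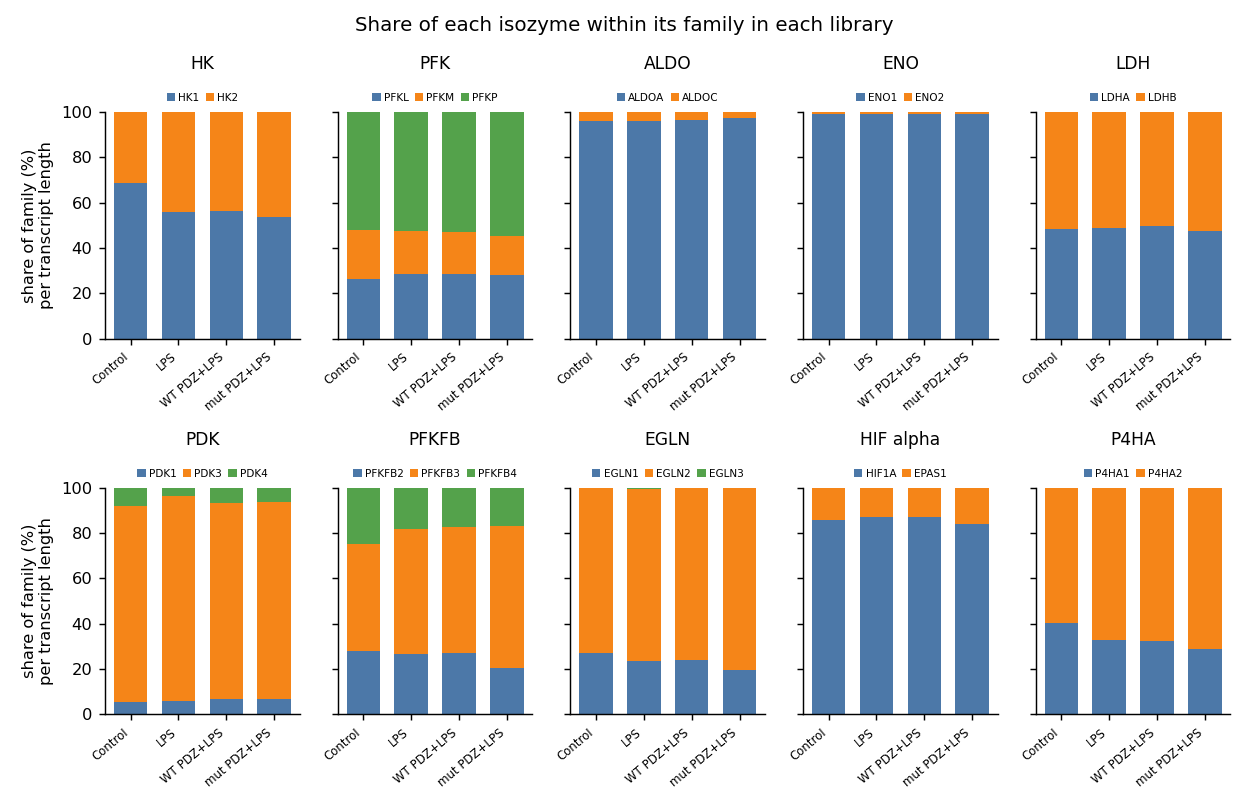
Share of each isozyme among the members of its family (vertical axis, percent, from normalized counts per kb) as stacked bars for 10 families, with 1 bar per library. HK2 and P4HA2 take a larger part and PFKFB4 a smaller part in the treated libraries than in Control, while the aldolases, enolases and lactate dehydrogenases look alike in all 4 bars.

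The library with the wild-type peptide lay close to LPS. In WT PDZ+LPS/LPS, 0 of 38 members were called higher, against 0.635% of all genes, and 0 lower, against 0.733%. At 1.5-fold 2 were higher (ANKRD37 from 12 to 18 counts and PDK4 from 47 to 73), against 2.15%, and 0 were lower, against 2.16%. The median over the expressed members was 0.00096 on the log2 scale, and 26 of 37 lay within 0.1 of 0. Intervals below 0 included HK2 (-0.14 to -0.034) and PDK3 (-0.40 to -0.055), and intervals above 0 included PFKFB2 (0.036 to 0.35) and PFKFB3 (0.057 to 0.33).

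The library with the mutant peptide stood further from LPS, for members and for all genes. The median over the expressed members was -0.11 on the log2 scale, with 25 of 37 lower and 12 within 0.1 of 0. Over all expressed genes the median was -0.023, with 6812 of 13072 lower. Genes with a mean of 1000 or more, as 27 members have, gave -0.083, with 3145 of 5326 lower. The median absolute log2 fold change over LPS was 0.055 with the wild-type and 0.18 with the mutant peptide over members, and 0.081 and 0.29 over all genes. In mut PDZ+LPS/LPS, 0 of 37 members were called higher and 0 lower, against 2.05% and 1.9% of all genes. At 1.5-fold ADM was higher, against 7.89%, and HIF1A, PDK3 and PFKFB2 were lower, against 9.8%. Between the peptides, in mut PDZ+LPS/WT PDZ+LPS, 0 of 38 were called in either direction, against 2.12% higher and 2.14% lower. At 1.5-fold ADM was higher there, against 8.4%, and HIF1A, PDK1, PDK3, PDK4 and PFKFB2 were lower, against 10.7%.

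Transcript length went with these values. Over 12114 genes, which are not independent replicates, Spearman's rho of length with log2 fold change was -0.605 for mut PDZ+LPS/LPS and 0.0749 for WT PDZ+LPS/LPS. The median in the former ran from 0.40 in the shortest 10% of transcripts to -0.47 in the longest 10%. After correction its rho with length was 0.0928, so a weak trend of the opposite sign remained.

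Once corrected, PDK3 was over 2-fold lower in mut PDZ+LPS/LPS, at -1.04 beside -0.93 as counted. The share was 0.693% of the 12114 expressed genes with a corrected value, and 0 members were higher, against 0.743%. At 1.5-fold the lower members were PDK3, HIF1A (-0.67) and CA9 (-0.92, from 53 and 29 counts), against 3.23%. For mut PDZ+LPS/WT PDZ+LPS they were HIF1A (-0.70), PDK3 (-0.82) and PDK4 (-0.63), against 3.25%. PFKFB2 and PDK1 were no longer among them. ADM was no longer higher in either comparison, where 4.09% and 4.52% of genes with a corrected value were. Over Control at 2-fold, corrected values called ADM and VHL (1.06) higher in mut PDZ+LPS, against 3.84% of genes with a corrected value. ADM was called higher in WT PDZ+LPS, against 2.86%. ANKRD37 has no corrected value, since its mean is under 16. At 1.5-fold, corrected mut PDZ+LPS/Control gave 4 members higher (ADM, HK2, P4HA2 and VHL), against 9.02%, and 3 lower (PDK3, PDK4 and PFKFB4), against 5.93%. The PDK3 transcript measures 1921 nt with a GC content of 44.1%, and the HIF1A transcript 3956 nt with 36.4%.

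**Figure D5:**
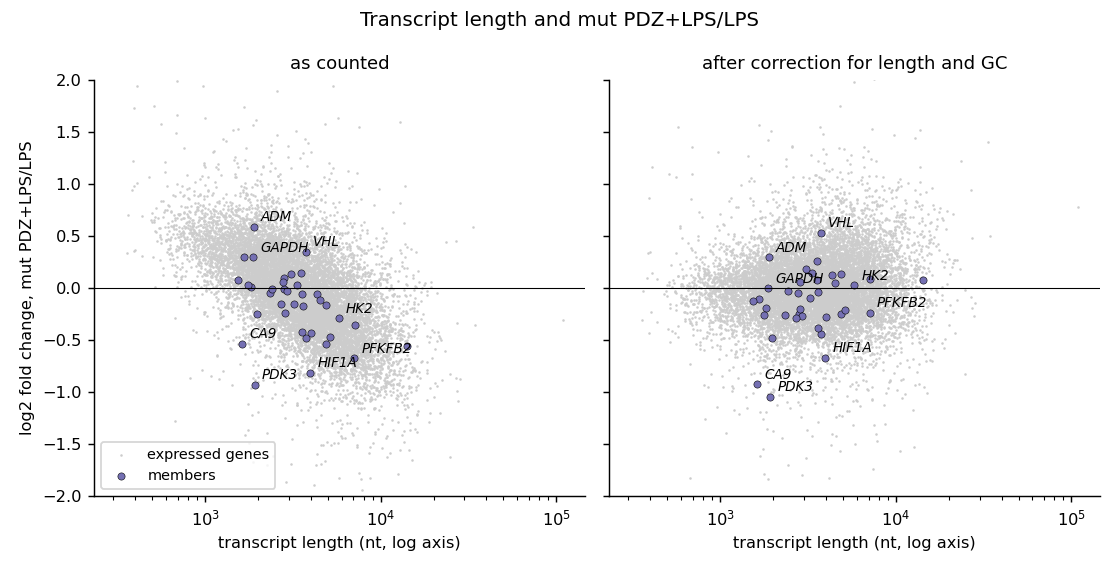
Log2 fold change of mut PDZ+LPS/LPS (vertical axis) by transcript length (horizontal log axis, nt) for expressed genes (grey) and members (purple), as counted on the left and corrected for length and GC on the right, with 18 genes in each panel outside the plotted range. GAPDH, HK2 and PFKFB2 lie nearer 0 on the right, while HIF1A (-0.67) and PDK3 (-1.04) stay low.

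Further genes of these pathways were counted from lists that share no member with the 39. Of 27 other glycolytic isozymes and sugar or lactate transporters, 15 met the count limit in LPS/Control. SLC2A6, a sugar transporter, was the 1 gene called there, and it was higher, against 3.46% of all genes. It had 704, 2274, 2129.6 and 2882 normalized counts. Named after its values were seen, SLC2A1, the main glucose transporter of many cultured cells, had 2592, 2688, 2798 and 2549.7. The lactate exporter SLC16A3, named likewise, had 15392, 16442, 17170.4 and 23125, and its mut PDZ+LPS/LPS log2 fold change was 0.49 as counted and 0.50 corrected.

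Of 35 other HIF targets 34 met the count limit. In LPS/Control 2 were called higher, against 3.46% of all genes, and 1 lower, against 1.41%. Counts this small are no result about that list as a whole. STC1, a secreted glycoprotein, had 309.8, 1634, 1323 and 1243 normalized counts, and ANGPTL4, a lipase inhibitor, had 516, 1242, 1109 and 1506. The lower gene was PPP1R3C, a glycogen-targeting subunit, with 58.3, 20.7, 24.2 and 17.6. STC2, LOX and INSIG2 lay near the 2-fold limit. Over Control the log2 fold changes of the 3 treated libraries, in the order given before, were 0.79, 1.03 and 1.17 for STC2, 0.96, 1.02 and 0.82 for LOX and 0.997, 0.936 and 1.009 for INSIG2. As counted, 4 of 34 were called higher and 1 lower over Control in each peptide library. All genes gave 3.28% and 1.42% for WT PDZ+LPS/Control, and 5.13% and 2.96% for mut PDZ+LPS/Control. STC2 was called in both peptide libraries, LOX in WT PDZ+LPS and INSIG2 in mut PDZ+LPS. Corrected, INSIG2 was called in LPS/Control as well, and LOX in mut PDZ+LPS instead of WT PDZ+LPS. For the 34 targets the LPS/Control median was 0.15, on the log2 scale, with 22 above 0. Over all expressed genes it was -0.0010, with 6504 of 13072 above 0. Over genes with a mean of 1000 or more it was 0.044, with 3280 of 5326 above 0. Among 15 other HIF regulators 0 were called in any of the 6 comparisons, where 0.635% to 5.13% of all genes were called in either direction.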

How the data were processed

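Poly(A)-selected RNA was made into libraries with the NEBNext Ultra II Directional kit. The submitters' processing notes name TopHat and hg19. The authors deposited raw read counts per gene symbol as whole numbers, although their methods also name FPKM and a geometric normalization. The counting tool, annotation and strand setting are not given in the sources used here.

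Counts were divided by median-of-ratios size factors (DESeq2 1.42.0 in R 4.3.3), 0.851 to 1.15 across libraries, and 1 was added before taking log2. Calls needed a 2-fold difference and 16 normalized counts in one library of a pair. Any of the 39 members could be named, and from other lists the called genes. The members and lists were chosen with earlier results of these data known. With 1 library per condition no test was run, and comparisons that share a library are not independent. Intervals are exact binomial (Clopper-Pearson, 95%).

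Alternatives were scaling by TMM (edgeR 4.0.16), by total counts or by the upper quartile, a pseudocount of 5, fold limits of 1.5 and 3, count limits of 64 or none, and subtraction of a lowess trend (span 0.3) on length and then GC content. Length and GC content were those of the longest protein-coding transcript of a gene in GENCODE 29, matched for 12114 of 13072 expressed genes and for the 39 members. Genes without such a transcript have no corrected value, so corrected shares are over the 12114 genes. Size factors without the mut PDZ+LPS library, and PDK shares with PDK2, were added after seeing the data. The steps were tested on simulated data, where the correction met a length trend but no GC trend. In the real comparisons of mut PDZ+LPS, rho with length was still 0.071 to 0.098 after correction. Promoters are RefSeq windows on GRCh38.p14. No other coordinates are given, since the counts use another build.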

Additional observations from a re-analysis of the deposited data

Results flagged for a closer look

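For 3 members the libraries with the peptides lay on opposite sides of LPS, both counting intervals excluded 0, and the libraries differed from each other at least 1.5-fold. As each condition had a single library, no test of that difference was possible. The share of all genes that meet these rules together was not computed. Between the peptides, 8.4% of all genes were at least 1.5-fold higher and 10.7% at least 1.5-fold lower, so 3 members are no result about the list. Of the 3, only HIF1A still differed 1.5-fold between the peptides when corrected. HIF1A (3956 nt) had log2 fold changes of 0.058 (0.032 to 0.084) for WT PDZ+LPS/LPS and -0.82 (-0.85 to -0.78) for mut PDZ+LPS/LPS. The peptides compared directly, in mut PDZ+LPS/WT PDZ+LPS, gave -0.87 (-0.91 to -0.84), or -0.70 corrected for length and GC content. ADM (1889 nt) had -0.26 (-0.38 to -0.14) and 0.59 (0.48 to 0.69) over LPS, and the direct value was 0.85 (0.74 to 0.96), or 0.54 corrected. PFKFB2 (7094 nt) had 0.19 (0.036 to 0.35) and -0.68 (-0.87 to -0.49) over LPS, and the direct value was -0.87 (-1.06 to -0.68), or -0.40 corrected. PGK1, with 0.055 (0.017 to 0.093) and -0.16 (-0.20 to -0.12) over LPS, and ENO1, with 0.018 (0.0020 to 0.033) and -0.047 (-0.063 to -0.030), also lay on opposite sides with intervals that excluded 0, at under 1.5-fold between the peptides.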

How the results depend on the processing

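No paired analysis was possible because each condition had 1 library. Of the called values 0 changed sign under any alternative. At 1.5-fold the members called higher numbered 4 for LPS/Control, 4 for WT PDZ+LPS/Control, 2 for mut PDZ+LPS/Control, 2 for WT PDZ+LPS/LPS, 1 for mut PDZ+LPS/LPS and 1 between the peptides, and those called lower numbered 2 for LPS/Control, 4 for mut PDZ+LPS/Control, 3 for mut PDZ+LPS/LPS and 5 between the peptides. At 3-fold 0 were lower for LPS/Control and for mut PDZ+LPS/Control, and 1 was higher for WT PDZ+LPS/Control. A limit of 64 normalized counts left 1 higher for WT PDZ+LPS/Control, and no limit made 1 (EGLN3) lower for WT PDZ+LPS/LPS. Corrected for length and GC content, 1 was higher for WT PDZ+LPS/Control, where ANKRD37 has no corrected value, 2 (ADM and VHL) for mut PDZ+LPS/Control, and 1 (PDK3) was lower for mut PDZ+LPS/LPS. Total-count scaling gave member medians of -0.10 for LPS, -0.078 for WT PDZ+LPS and -0.13 for mut PDZ+LPS over Control, where it moved the medians of all genes to -0.13, -0.12 and -0.12, and upper-quartile scaling gave -0.030 for LPS/Control. Single members moved beyond their counting interval in 89 of 234 values with total counts, 58 with the upper quartile and 93 of 222 when corrected, and in 0 with TMM, a pseudocount of 5 or the added size factors. Of values of 1.5-fold or more, 0 changed sign in these. Depth limited EGLN3, ANKRD37 and CA9 most, with 3 to 53 counts per library.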

Other observations

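Of 17 genes of the citric acid cycle 0 were called in any of the 6 comparisons, where 0.635% to 5.13% of all genes were called in either direction. Their median was 0.0012 for LPS/Control on the log2 scale. For mut PDZ+LPS/LPS it was -0.018 as counted and -0.13 corrected for length and GC content, with 15 of 17 lower. The corrected median for mut PDZ+LPS/Control was -0.11, with 14 of 17 lower. The 17 enzymes from glucose to lactate had corrected medians of -0.11 and -0.054 in these comparisons, with 13 and 10 of 17 lower. Over all genes with a corrected value these medians were -0.0039 and 0.0028, with 6151 and 6018 of 12114 lower. Over those with a mean of 1000 or more they were -0.017 and 0.048, with 2804 and 2296 of 5272 lower. A weak length trend remained after correction, and its part in these values was not tested. The citric acid cycle genes took 0.244%, 0.227%, 0.223% and 0.215% of the counts. The pentose phosphate path, with 8 genes, also gave 0 calls, and its median for mut PDZ+LPS/LPS was 0.21 as counted and 0.055 corrected. Of 7 genes of gluconeogenesis 3 were expressed, and FBP1, FBP2 and PCK1, named after their values were seen, had 0 counts throughout, which allows up to 3 per library.

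Of 10 genes of the pyruvate dehydrogenase complex, its phosphatases and the mitochondrial pyruvate carrier, 1 was called, PDPR. It was lower in mut PDZ+LPS than in Control, LPS and WT PDZ+LPS, against 2.96%, 1.9% and 2.14% of all genes. PDPR, which regulates the phosphatase that opposes the PDK enzymes, had 2149.7, 2194, 2295 and 1049 normalized counts, and mut PDZ+LPS/LPS was -1.06 (-1.18 to -0.95) on the log2 scale, or -0.56 corrected. TFRC, the transferrin receptor and a HIF target, had 8412, 10474, 11874 and 5527, with -1.10 (-1.15 to -1.05) between the peptides, or -0.78 corrected.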
